A study of Mus musculus with 2031 samples.

Results

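The genes described here are 7 genes of potassium channels and of the sodium pump: Kcnj10, Kcnj16, Kcnk1, Kcnk2, Atp1b1, Atp1b2 and Fxyd1. Of these, the paper lists Kcnj10, Kcnj16 and Kcnk1 as ion transport genes expressed differently between its astrocyte subtypes. The 7 genes were chosen by name from the 49671 genes of the count files, with earlier results of these data known. All 7 had counts. Each was followed across the cell types and astrocyte subtypes (AST1 to AST5) that the authors assigned and across both brain areas. The samples are single cells of C57BL/6J mice at postnatal day 56, from 2 cortical and 2 hippocampal suspensions. Each cortical suspension came from 1 animal, and each hippocampal suspension pooled 4 littermates of another litter, so brain area cannot be told apart from litter and from pooling. All cells had been dissociated with papain and sorted as positive for ACSA-2 and negative for O1 and 7-AAD. ACSA-2 recognizes the protein of Atp1b2, so that gene's product chose the cells. Counts of 2030 cells were used, of which 1781 were typed as astrocytes. Cell types and subtypes had been obtained by clustering these same counts, so the levels by type below are descriptions and carry no test.

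Astrocytes take up the potassium that active neurons release. Inward rectifier (Kir) and two-pore (K2P) channels hold the astrocyte membrane close to the potassium equilibrium potential, and the sodium pump moves potassium inwards against sodium. The pump is built of a catalytic alpha subunit, a beta subunit that brings it to the membrane and an FXYD protein that adjusts its activity. Kcnj10 encodes Kir4.1, the main Kir channel of astrocytes, and Kcnj16 encodes Kir5.1, which forms channels together with Kir4.1. Kcnk1 (TWIK-1) and Kcnk2 (TREK-1) encode K2P channels. Atp1b1 and Atp1b2 encode the beta1 and beta2 subunits, and Fxyd1 encodes phospholemman.

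The members lie on 4 chromosomes of the mouse genome GRCm38. Kcnj10 occupies chr1:172341210-172374085 on the plus strand. Atp1b1 occupies chr1:164437109-164458355 on the minus strand, where its 3′ end overlaps Nme7 of the other strand. Kcnk2 occupies chr1:189207930-189402273 on the minus strand and has 4 annotated genes within its bounds. Fxyd1 lies at chr7:31051678-31057199 on the minus strand, next to Fxyd7. Kcnk1 lies at chr8:125995170-126030685 on the plus strand and overlaps the antisense gene Gm45875. On chromosome 11, Atp1b2 lies at chr11:69599736-69605942 on the minus strand and Kcnj16 at chr11:110968033-111027968 on the plus strand. Reads on an overlap cannot be assigned to a strand here, because the strand setting of the counting is not given in the sources used here.

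The sequences before the start of Kcnk1, Atp1b1 and Kcnj10 are shown as examples. The first 2 of these genes were lower in both hippocampal than in both cortical suspensions over all typed astrocytes, and the third was not. The share of all genes with such an order is not given here, and the first test between areas below called none of them. Atp1b2 was also lower in both hippocampal suspensions but had no promoter entry. The order thus sets no promoters apart. Each sequence runs 5′ to 3′ over the 250 bases before the RefSeq start on GRCm38.p6: chr8:125994852-125995101 on the plus strand for Kcnk1, chr1:164458356-164458605 on the minus strand for Atp1b1 and chr1:172340960-172341209 on the plus strand for Kcnj10. Capitals mark matches, on either strand, to TTGGC (a half-site of nuclear factor I), CCAAT and TATAAA. Where the letters read ATTGGC, the first 2 motifs overlap and both are counted.
Kcnk1: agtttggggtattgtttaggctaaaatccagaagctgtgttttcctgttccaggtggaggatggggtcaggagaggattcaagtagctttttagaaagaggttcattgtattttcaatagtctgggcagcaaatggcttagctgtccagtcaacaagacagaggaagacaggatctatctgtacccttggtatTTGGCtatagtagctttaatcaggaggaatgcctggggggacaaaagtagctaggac
Atp1b1: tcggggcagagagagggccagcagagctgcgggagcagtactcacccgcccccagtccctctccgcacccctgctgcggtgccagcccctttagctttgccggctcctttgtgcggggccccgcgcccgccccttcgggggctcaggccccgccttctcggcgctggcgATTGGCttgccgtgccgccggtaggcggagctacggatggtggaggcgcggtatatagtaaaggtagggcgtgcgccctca
Kcnj10: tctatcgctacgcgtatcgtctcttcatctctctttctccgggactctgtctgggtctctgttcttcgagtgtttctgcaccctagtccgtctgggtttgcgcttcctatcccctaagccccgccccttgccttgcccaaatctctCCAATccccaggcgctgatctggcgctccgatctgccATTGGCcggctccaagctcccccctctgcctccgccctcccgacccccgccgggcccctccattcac
Kcnk1 has 1 match to TTGGC and none to the others. Atp1b1 has 1 match to TTGGC and 1 to CCAAT, and Kcnj10 has 1 and 2. Of 32851 RefSeq promoters, 41.5% hold TTGGC, 33.8% hold CCAAT and 12.4% hold TATAAA in a window of the same length. In base composition, 44.4% of the bases are G or C for Kcnk1, 70.4% for Atp1b1 and 62% for Kcnj10.

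The median number of gene counts per cell was 1431480 in AST1, 1428830 in AST2, 1659870 in AST3 and 1405690 in AST4. The 8 astrocyte markers summed to between 28367 and 43690 CPM (counts per 1000000 gene counts) in sums of AST1 to AST5 cells and to at most 498 CPM in mural, endothelial and neuronal sums. Summed markers of the other types reached at most 610 CPM for mural, 3.55 for endothelial, 70.5 for neuronal and 100.01 for microglial genes in any astrocyte sum, and 1036 for oligodendrocytic genes, in AST5. AST2 was mainly cortical, with 523 cortical and 32 hippocampal cells, AST1 mainly hippocampal, with 545 of its 657 cells, and AST4 held 91 cells, of which all but 2 were hippocampal. Immediate early genes (8 genes of the rapid transcriptional response) summed to 205.8 to 344.8 CPM in AST1, 244.4 to 806 in AST2, 916 to 1918 in AST3 and 2463 to 3815 in AST4 sums, and the mural markers to 268.1 to 610 CPM in AST4. The part of these genes in the levels below was not tested.

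Per kilobase of exon, Atp1b2 was the most abundant member in astrocytes, at 1204 ± 40.6 CPM per kb (mean ± SD of 4 suspensions, all typed astrocytes). Kcnk1 followed at 365.8 ± 137.2 and Atp1b1 at 157.03 ± 66.6 CPM per kb. The next levels were 73.3 ± 8.40 for Kcnj16, 61.1 ± 10.8 for Fxyd1 and 25.5 ± 5.13 CPM per kb for Kcnj10. Kcnk2 was lowest at 4.78 ± 1.91 CPM per kb. The levels of Kcnj16 (66.4 to 84.9 CPM per kb) and Fxyd1 (49.1 to 72.6 CPM per kb) overlapped over suspensions, with Kcnj16 the higher within each of them.

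**Figure D1:**
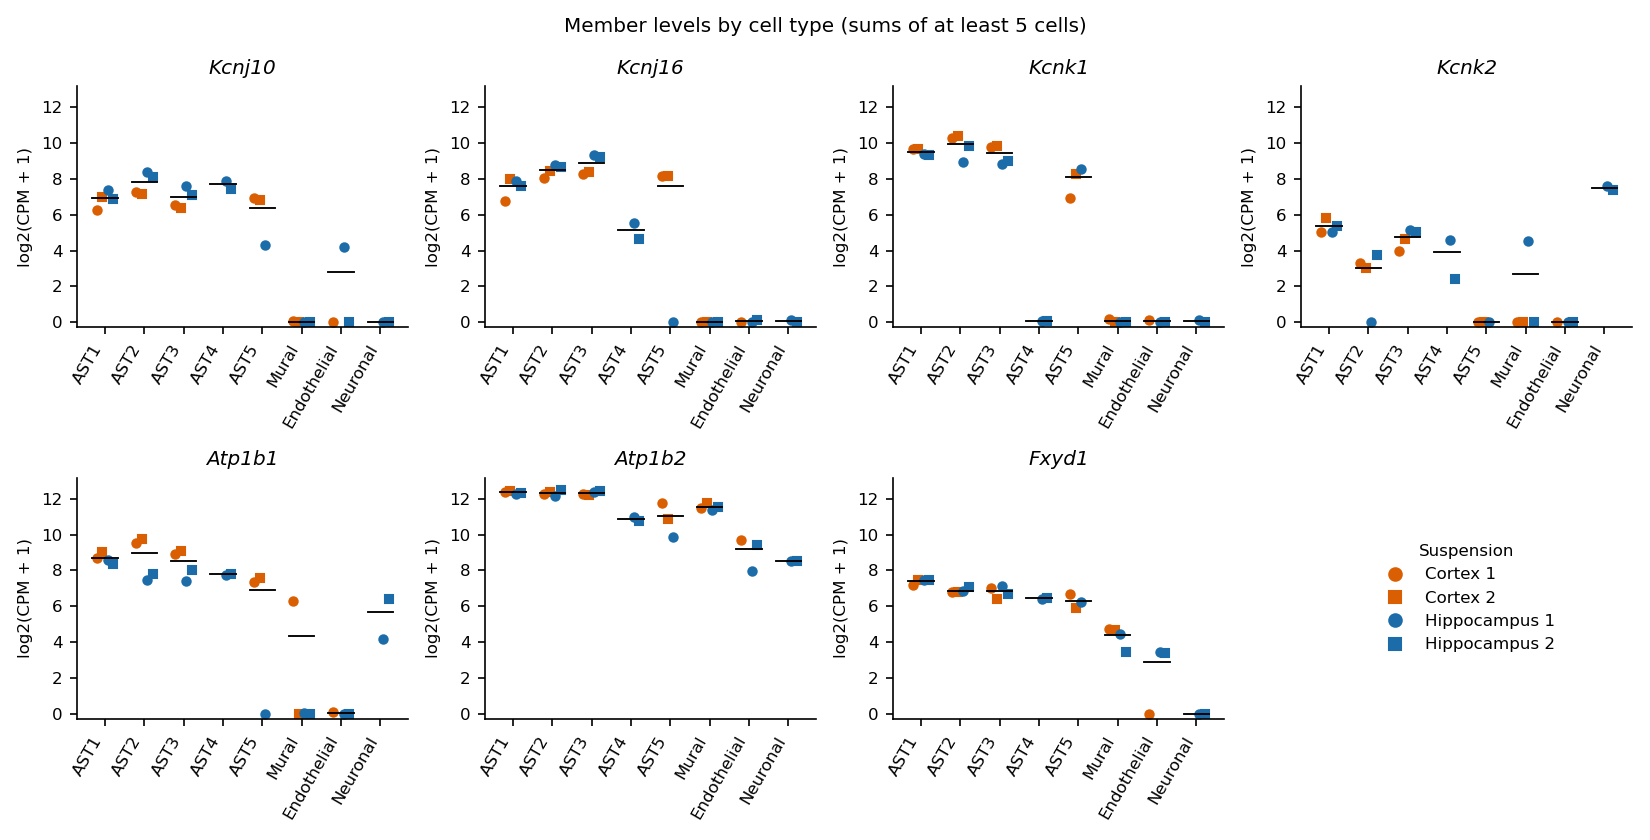
Level of each member as log2(CPM + 1) in sums of at least 5 cells of one type from one suspension; points are suspensions (orange cortex, blue hippocampus), black lines the log2 of the mean CPM plus 1. Kcnj10, Kcnj16 and Kcnk1 are near 0 in mural and neuronal sums, Kcnk2 is highest in neuronal sums, and Kcnk1 is near 0 in AST4.

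Among the Kir genes, Kcnj10 was present in all main astrocyte subtypes. In AST1 its level was 76.0 and 128.6 CPM in the cortical and 164.1 and 114.6 CPM in the hippocampal suspensions. In AST2 it was 151.98 and 141.3 CPM in cortex and 339.1 and 272.4 CPM in hippocampus. In AST3 it was 91.2 and 83.1 CPM in cortex and 191.6 and 138.3 CPM in hippocampus. AST2 was above AST1 and above AST3 within each of the 4 suspensions, by 0.85 ± 0.49 on the log2(CPM + 1) scale over AST1 (mean ± SD), while AST3 and AST1 changed order between suspensions. AST4, measured in both hippocampal suspensions, held 237.5 and 174.9 CPM, above AST1 in both. The mural sums held 1 count in all, both neuronal sums held none, and 1 endothelial sum held 17.5 CPM.

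Kcnj16 was ordered differently. In AST3 it stood at 315.5 and 338.5 CPM in cortex and 651 and 604 CPM in hippocampus. In AST2 it stood at 259.9 and 347.98 CPM in cortex and 436.2 and 405.3 CPM in hippocampus. In AST1 it stood at 106.8 and 250.5 CPM in cortex and 236.6 and 190.7 CPM in hippocampus. AST3 exceeded AST1 in all 4 suspensions by 1.28 ± 0.57 on the log2 scale, and AST2 exceeded AST1 in all 4 by 0.93 ± 0.34, whereas AST3 exceeded AST2 in 3 of 4. AST4 held only 45.4 and 24.2 CPM. It thus had Kcnj10 above AST1 but Kcnj16 below AST1 in both suspensions, the latter by 2.64 ± 0.40 on the log2 scale, whereas AST2 had both genes above AST1. No mural, endothelial or neuronal sum held more than 1 count of Kcnj16.

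At the level of single cells, a count of Kcnj10 was found in 45.5% of AST1, 52.3% of AST2, 45.6% of AST3 and 68.1% of AST4 cells. A count of Kcnj16 was found in 33.9%, 51.2%, 63.5% and 11% of the same subtypes. Within each of the 4 suspensions the share with Kcnj10 was higher in AST2 than in AST1 and AST3, and that with Kcnj16 was higher in AST3 than in AST2 and in AST2 than in AST1. In mural cells, which served as background at a median depth of 1216970 counts, either gene was found in 0.746% of cells. Thinning every cell to 600000 counts left the order of the subtypes for Kcnj16 as it was, with 32.6%, 49.2%, 62.4% and 11%. Both Kir genes had a count in 15.4% of AST1, 26.8% of AST2, 30.1% of AST3 and 5.49% of AST4 cells. The product of the 2 shares was 15.4%, 26.7%, 28.9% and 7.49%, respectively, and thus close to the measured share in AST1 to AST3. In AST4, 62.6% of cells had Kcnj10 without Kcnj16. Within 12 sets of at least 30 cells of 1 subtype and 1 suspension, the CPM of both genes had a median Spearman rho of -0.0024 (from -0.20 to 0.13). Over only the cells with counts of both genes, 6 sets of 39 to 77 cells had a median rho of 0.16 (from -0.06 to 0.23), positive in 5.

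**Figure D2:**
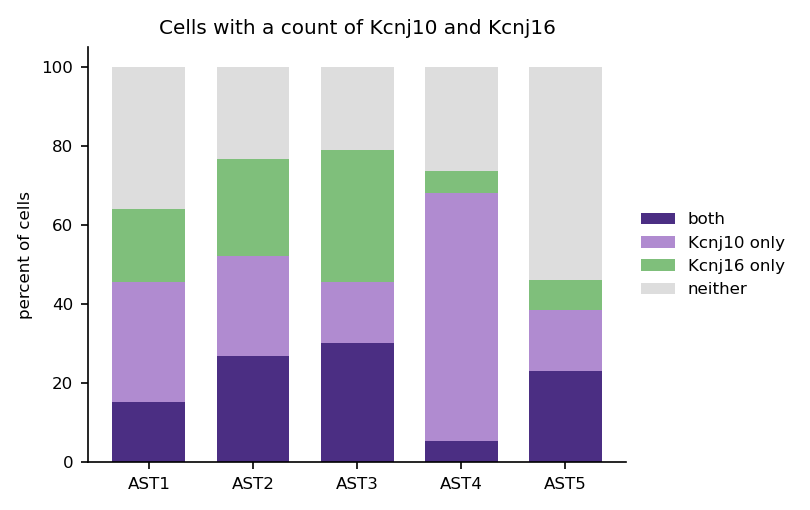
Percent of cells of each astrocyte subtype with a count of both Kcnj10 and Kcnj16, of only one, or of neither, over all suspensions. Both genes have a count in 30.1% of AST3 and 26.8% of AST2 cells, whose order differs between the cortical suspensions (27.3% and 25.8% in AST3, 25.8% and 27.2% in AST2), and Kcnj10 alone has one in 62.6% of AST4 cells.

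Of the K2P genes, Kcnk1 was high in AST1 to AST3 and all but missing from AST4. Its level in AST1 was 803 and 820 CPM in the cortical and 664 and 642 CPM in the hippocampal suspensions. In AST2 it was 1247 and 1342 CPM in cortex and 492 and 919 CPM in hippocampus. In AST3 it was 890 and 905 CPM in cortex and 461 and 504 CPM in hippocampus. AST3 was below AST2 in all 4 suspensions, by 0.50 ± 0.32 on the log2 scale. In AST4 only 2 counts in the first and 3 counts in the second hippocampal suspension were found, that is 0.032 and 0.043 CPM, although these sums held the other 6 members. The share of cells with a count was 74.1% in AST1, 94.2% in AST2, 84.3% in AST3 and 5.49% in AST4, over all suspensions together. Since AST2 is mainly cortical and AST1 mainly hippocampal, the order of these pooled shares also carries brain area: the means over suspensions were 77.3 ± 5.68% in AST1, 83.9 ± 22.6% in AST2 and 80.2 ± 14.6% in AST3 (SD, n = 4). In hippocampus 1 the order was reversed, with 71.2% of AST1, 60% of AST3 and 50% of AST2 cells, the last being 5 of 10 cells. No AST4 cell had 10 or more counts. The shares in mural and endothelial cells were 1.49% and 3.33%, so AST4 could not be told from background. In AST5 the 3 sums gave 122.6, 313.7 and 378.01 CPM.

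Kcnk2 was sparse in astrocytes. It had a count in 19.03% of AST1, 5.59% of AST2, 13.7% of AST3 and 13.19% of AST4 cells over all suspensions together, against 0.746% of mural cells. Within cortex the share in AST1 was not above that in AST3 (12.3% and 7.27% against 12.3% and 13.9%), and in the second hippocampal suspension AST2, with 4 of 22 cells, was at 18.2% against 15.9% in AST3. Its levels in AST1 were 32.02 and 55.7 CPM in cortex and 31.4 and 40.6 CPM in hippocampus, and AST2 lay below AST1 in each suspension, at 8.87 and 7.17 CPM in cortex and 0 and 12.5 CPM in hippocampus. The sum of 0 stands for 10 cells, none with a count, for which the Wilson 95% upper bound is 27.8%. The highest values were those of the neuronal cells, 193.5 and 164.7 CPM from 8 and 9 cells, with a count in 64.7% of them. Kcnk1 and Kcnk2 thus had their highest sums in different cell types, AST2 and neuronal cells. The single mural sum with Kcnk2, at 22.1 CPM, rested on 1 cell.

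**Figure D3:**
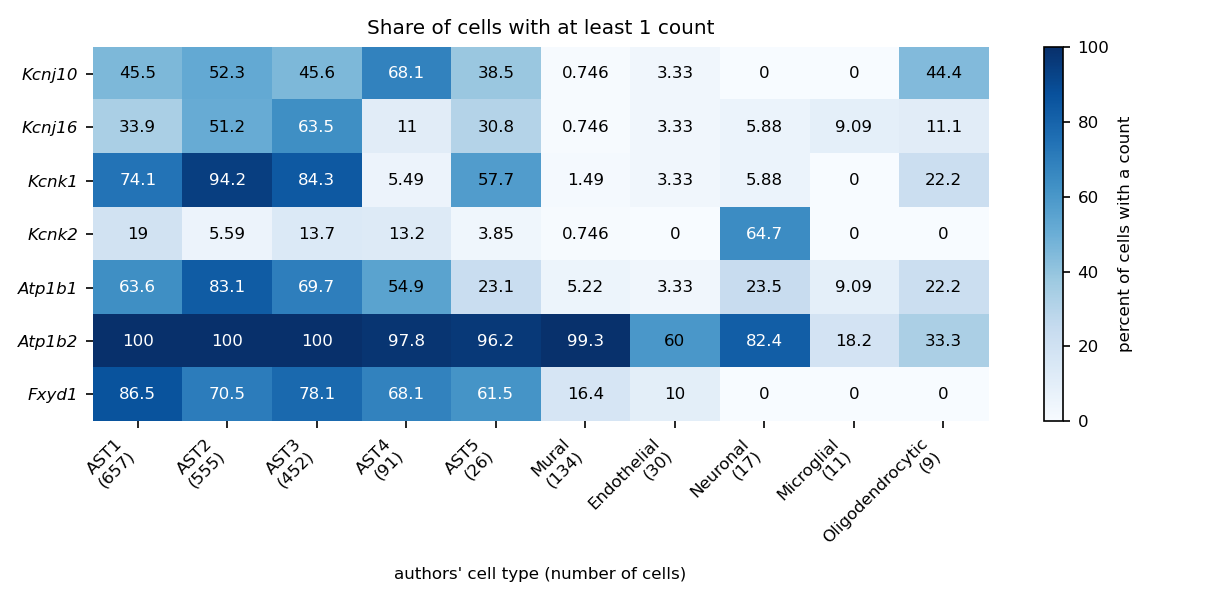
Percent of cells with at least 1 count of each member (rows) in each authors' cell type (columns, number of cells in brackets). Kcnk1 is in 94.2% of AST2 but 5.49% of AST4 cells, whereas Atp1b2 is in 99.3% of mural cells as well as in all AST1 to AST3 cells.

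Atp1b2 had close levels in AST1, AST2 and AST3 and lower ones in the smaller subtypes. Its 12 sums of AST1, AST2 and AST3 ranged from 4651 to 5756 CPM, and all cells of these subtypes had a count. The log2 differences between these subtypes averaged between -0.04 and -0.01 and were smaller than their SD. AST4 stood apart at 2045 and 1774 CPM, 1.42 ± 0.18 below AST1 on the log2 scale in both hippocampal suspensions. The AST5 sums, of 6 to 10 cells, spread from 918.9 to 3457 CPM. A median of 1.59% of the reads of AST5 cells lay outside exons, against 12.8% in AST1, with a median of 1674.5 genes found, against 1992. The part of this in the AST5 levels of this and the other members was not tested. The gene was not confined to astrocytes among these sorted cells: mural sums held 2923, 3483, 2673 and 2989 CPM, endothelial sums 838, 251.4 and 697 CPM and neuronal sums 370.2 and 370.3 CPM. The endothelial sums also held 10518 to 17402 CPM of the 7 mural markers, whose part in the endothelial values was not tested. Since the sort selected for the product of Atp1b2, cells without it are under-represented, and a level in these non-astrocytic cells is not that of their type in the tissue.

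Atp1b1 reached 747 and 869 CPM in cortical AST2 cells but 176.2 and 226.4 CPM in hippocampal AST2 cells. In AST1 it was 409 and 533 CPM in cortex and 387.4 and 331.7 CPM in hippocampus. In AST3 it was 486 and 547 CPM in cortex and 169.7 and 262.7 CPM in hippocampus. AST4 held 217.2 and 219.3 CPM. Neuronal sums held 16.8 and 83.3 CPM, and of the mural sums only the first cortical one exceeded 1 CPM, at 77.4. The share of cells with a count followed the same order: 84.2% and 86.6% of cortical AST2 cells, 40% (Wilson 95% interval 16.8 to 68.7) and 45.5% (26.9 to 65.3) of hippocampal AST2 cells.

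Fxyd1 was present at a moderate level in every astrocyte subtype. It was at 143.7, 179.3, 177.96 and 172.9 CPM in AST1 and at 110.1, 109.9, 112.9 and 133.99 CPM in AST2, in the order cortex 1, cortex 2, hippocampus 1 and hippocampus 2. AST2 and AST3 were below AST1 in every suspension, by 0.52 ± 0.18 and 0.59 ± 0.40 on the log2 scale. AST4 held 83.4 and 87.5 CPM. Mural sums held 10.02 to 25.9 CPM, and both neuronal sums had no count. Its neighbour Fxyd7, of the same family, averaged at most 5.66 CPM in any of the types.

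Per kilobase, Atp1b2 made up 87.2 ± 1.41% of the transcripts of the 3 beta subunit genes in AST1, 85.9 ± 6.70% in AST2 and 87.5 ± 3.57% in AST3 (n = 4 suspensions each). The share of Atp1b1 in AST2 ran from 4.55% to 17.3%, the lower values being hippocampal. In AST4 Atp1b2 made up 78.7 ± 0.98%, and Atp1b3, the beta3 subunit, 9.34 ± 0.15% (n = 2). In mural cells Atp1b2 made up 86.3 ± 6.28% (n = 4), with Atp1b1 at 2.97% in the first cortical sum, from 5 cells with a count, and at most 0.0013% in the other 3, and in neuronal cells 48.9 ± 0.69% (n = 2), with Atp1b3 at 42.3%. The neuronal sums hold 8 and 9 cells, with Atp1b1 at 2.91% and 14.7%. Because the sort selected for the product of Atp1b2, its share in these sorted cells need not be that of their type in the tissue.

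**Figure D4:**
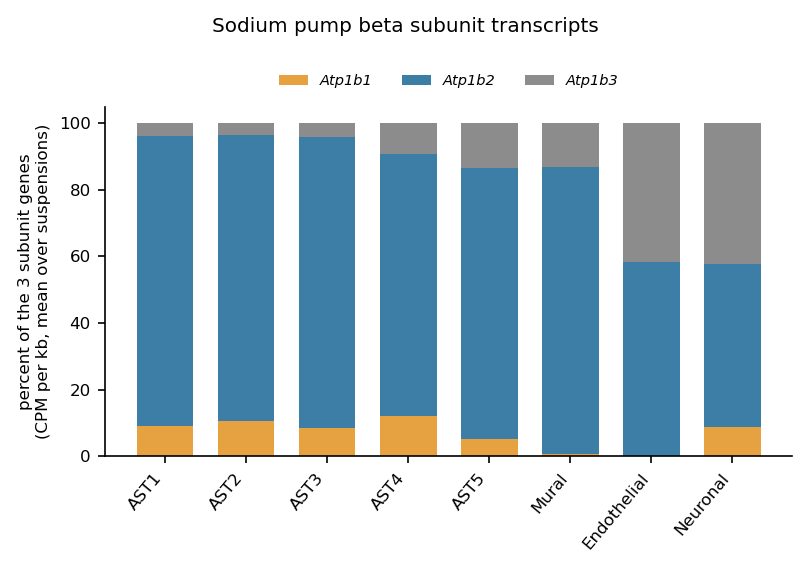
Share of each beta subunit gene of the sodium pump in the summed CPM per kb of the 3 genes shown, in percent, as the mean over suspensions with at least 5 cells of the type. Atp1b2 fills most of each astrocyte bar, and neuronal and endothelial bars hold more Atp1b3. All cells had been sorted for the product of Atp1b2.

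The brain areas were compared by edgeR's quasi-likelihood test on counts summed per suspension. Over all typed astrocytes, 0 of 19160 genes were called at an adjusted p under 0.05 (0% of genes), and none of the 7 members was. At an unadjusted p under 0.05 there were 2609 genes, and DESeq2 called 10.3% of the genes it gave an adjusted p for. The median log2 difference (hippocampus minus cortex) was -0.05 over the 7 members and 0.01 over all genes tested. Kcnk1 was at 1038 and 1125 CPM in cortex (mean 1082 ± 60.98, SD) and 553 and 555 CPM in hippocampus, a log2 difference of -0.94 (SE 0.07) with an edgeR adjusted p of 0.135. Atp1b1 was at 598 and 714 CPM in cortex and 321.9 and 300.4 CPM in hippocampus, a log2 difference of -1.05 (SE 0.12) with an edgeR adjusted p of 0.171. Neither gene's areas overlapped, but those of Kcnj10, Kcnk2, Atp1b2 and Fxyd1 did not overlap either, and only those of Kcnj16 did. The share of all genes without overlap is not given here, so the lack of overlap adds nothing to these tests.

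Fxyd1 was at 120.8 and 107.4 CPM in cortex and 158.7 and 147.1 CPM in hippocampus, with a log2 difference of 0.45 (SE 0.10) and an edgeR adjusted p of 0.231. Kcnk2 was at 13.7 and 17.7 CPM in cortex and 29.95 and 33.3 CPM in hippocampus, with a log2 difference of 1.04 (SE 0.23) and the same adjusted p. The log2 difference of Kcnj10 was 0.41 (SE 0.17), that of Kcnj16 was -0.07 (SE 0.16) and that of Atp1b2 was -0.05 (SE 0.04), with edgeR adjusted p-values of 0.423, 0.951 and 0.753.

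The edgeR filter kept many genes found in few cells, so the test was repeated on the 3109 genes with a count in over 25% of the cells of AST1, AST2 or AST3, which was decided once the first results were known. There 561 genes (18%) were called, and Kcnk1, Atp1b1 and Fxyd1 were among them. Kcnk1 had a log2 difference of -0.90 (SE 0.08, edgeR adjusted p = 4.94e-05) and Atp1b1 one of -1.02 (SE 0.10, adjusted p = 0.000192). Fxyd1 had 0.48 (SE 0.13, adjusted p = 0.0291), while Kcnk2 was below the detection limit of this subset. DESeq2 called the same 3 members and Kcnk2. Sums over all astrocytes mix the level in a cell with the shares of the subtypes, and with AST1, AST2 and AST3 weighted equally the log2 difference was 0.15 for Fxyd1 and 0.10 for Kcnk2, against -0.72 for Kcnk1 and -1.20 for Atp1b1. Kcnj10 then had 0.84 and Kcnj16 0.65, and none of these passed limma's test.

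Within subtypes, 1 member passed in 1 subtype. Atp1b1 fell in hippocampal AST2 cells by 2.10 on the log2 scale (SE 0.28, edgeR adjusted p = 0.00818), a call that uses the spread of the sums of all 3 subtypes. With AST2 fitted alone the value was -2.11 (SE 0.28) with an adjusted p of 0.139, and 0 genes were called by edgeR (3459 at an unadjusted p under 0.05). In AST2, 4.16% of 18406 genes were called, against 0.0109% in AST1 and 0.0272% in AST3, and of the 765 genes called in AST2 738 were lower in the hippocampal sums, which hold only 10 and 22 cells. The median log2 difference of all genes tested in AST2 was -0.89. Among the genes found in over 25% of cells that median was near 0 (-0.001), the same test called 3.15% in AST2, and Atp1b1 was again called, at -1.91 (SE 0.27, adjusted p = 0.0078). Leaving out either cortical suspension kept the size, at -2.24 without the first and -1.99 without the second, with edgeR adjusted p of 0.28 and 0.288. Wherever a suspension was left out, 1 area of each subtype kept a single sum, which the fit assumes to vary like the other groups, so neither a call lost nor a call gained there bears on the spread within that area. In AST3, Atp1b1 had a log2 difference of -1.20 (SE 0.28, edgeR adjusted p = 0.631), and in AST1 one of -0.36 (SE 0.27, adjusted p = 0.937).

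As fitted to all sums, edgeR called no other member in a subtype. DESeq2 also called Kcnj10 in AST2 (1.129, adjusted p = 0.0109), where it called 24.5% of all genes, and Atp1b1 in AST3 (-1.17, adjusted p = 0.0109), where it called 6.79%. Without the second hippocampal suspension edgeR called Kcnk1 in AST2, at -1.62 (adjusted p = 0.00192), along with 18.6% of all genes. Hippocampal AST2 is then a single sum of 10 cells, whose spread is taken from the other groups. edgeR also called Kcnk2 there, whose hippocampal sum then held no counts. Over 14 alternatives in AST2, Atp1b2 ran from -0.38 to 0.13 and was called under 1 of them. The share of all genes called under that alternative is not given beside it. Kcnk1 had log2 differences of -0.28 in AST1, -0.95 in AST2 and -0.84 in AST3, with SEs of 0.29 each. Kcnj10 had 0.47, 0.94 and 0.98 (SEs 0.31 each), and Kcnj16 had 0.28, 0.36 and 1.00 (SEs 0.36 each). The AST1 value of Kcnj16 was -0.22 without the first and 1.06 without the second cortical suspension, and that of Kcnj10 ran from 0.01 to 0.96 over 15 alternatives. The AST3 values depended on the scaling: with library sizes from the ERCC spike-ins, control RNAs added to each cell, they were 0.46 for Kcnj10 and 0.50 for Kcnj16. The median gene counts per ERCC count of AST3 cells were 29.4 and 30.5 in cortex and 20.8 and 22.8 in hippocampus. Within the cells of the first thermal block of the library PCR, Kcnj10 in AST3 was at -0.093 (SE 0.61) and Kcnj16 at 0.85 (SE 0.30). In CPM, the hippocampal sums of Kcnj10 and Kcnj16 were all above the cortical sums in AST2 and AST3, as those of Kcnk1 and Atp1b1 were all below. In AST1 the areas overlapped for both Kir genes and did not for Kcnk1 and Atp1b1. These orders rest on 2 sums per area, and the share of all genes with such an order is not given here.

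**Figure D5:**
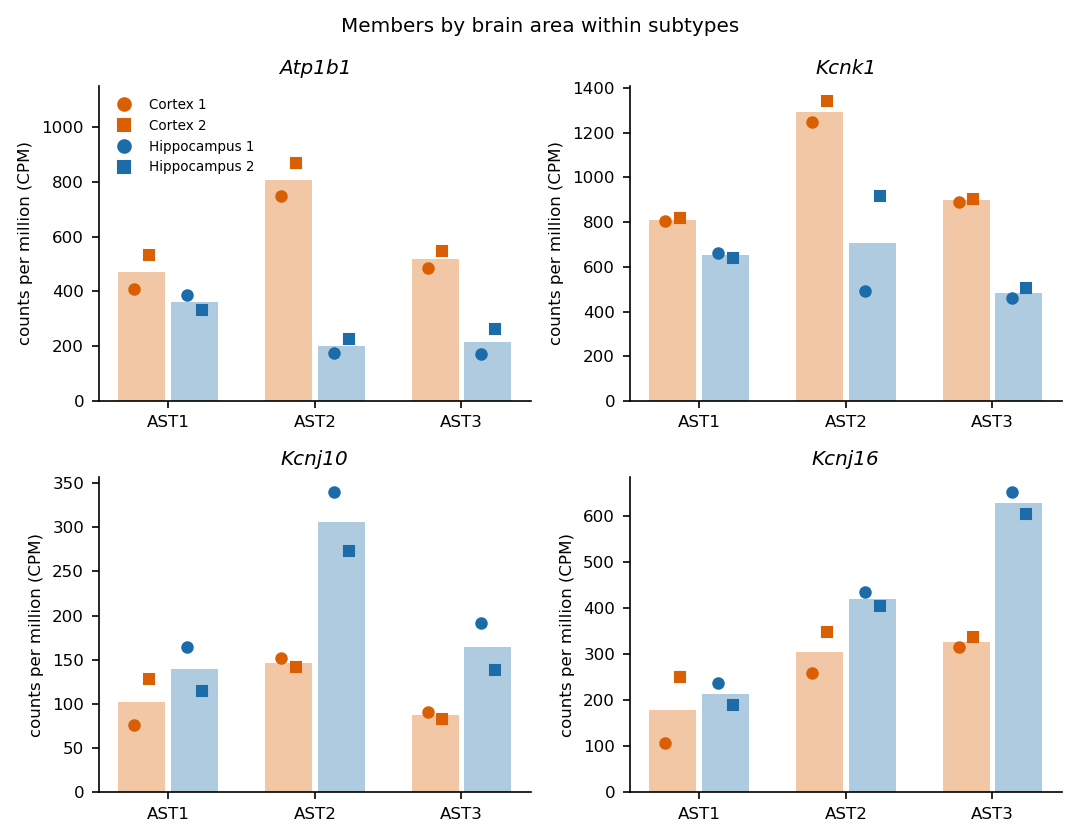
CPM of 4 members in AST1, AST2 and AST3, with bars for the mean of 2 suspensions and points for each suspension (orange cortex, blue hippocampus). Atp1b1 and Kcnk1 have lower hippocampal points in each subtype, with the widest gap for Atp1b1 in AST2.

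The difference between areas was then compared between subtypes. For Atp1b1 it was larger in AST2 than in AST1 by -1.74 on the log2 scale (SE 0.39), with an edgeR adjusted p of 0.0575. No member was called by edgeR as fitted to all sums in this comparison, in which 3.18% of genes were, nor in AST3 against AST1 (0% of genes, 1205 at an unadjusted p under 0.05 and 1626 called by DESeq2) or in AST3 against AST2 (2.53%). The sums of the 3 subtypes come from the same suspensions, which this fit leaves out of account. With the suspension as a block 1 gene was called in AST2 against AST1, against 585 without it, and Atp1b1 had -1.79 with an edgeR adjusted p of 0.15. Atp1b1 was called in this comparison under 4 of 14 alternatives. DESeq2 called it (-1.51, adjusted p = 0.00934) with 23.2% of all genes. edgeR called it with cells thinned to equal depth (-1.81, adjusted p = 0.0457, 3.12% of genes) and with the replicate number of the suspensions as a block (-1.79, adjusted p = 0.0493, 1.2% of genes), although the numbers did not pair the samples by their values. It also called it without the second hippocampal suspension (-2.17, adjusted p = 0.0149), where hippocampal AST2 is 1 sum of 10 cells and 15.8% of genes were called, Kcnk1 among them (adjusted p = 0.00594, from -1.62 in AST2 and -0.26 in AST1). Kcnk2 was called there too, but with a sum without counts its fitted value gives no size. In AST3 against AST2, Kcnk1, Kcnk2 and Atp1b2 were each called under 1 alternative. The share of all genes called under the same alternatives is not given beside them, so these calls cannot be read as particular to the members. The values over 14 alternatives ran from -0.24 to 0.71 for Kcnk1 and from 0.003 to 0.58 for Atp1b2.

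Library PCR had been run in separate thermal blocks, of which the first held all cortical cells and part of the hippocampal ones. Within the first, the log2 difference over all astrocytes was -0.94 (SE 0.18) for Kcnk1 and -1.05 (SE 0.20) for Atp1b1, as large as over all cells. It was 0.88 (SE 0.22) for Fxyd1, 0.10 (SE 0.16) for Kcnj10 and 1.01 (SE 1.32) for Kcnk2, and edgeR called none of them there. The share of all genes called in that fit is not given here.

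The wider family was covered by 53 other genes in 5 lists: pump subunits, Kir channels with their Abcc partners, K2P channels, cation-chloride cotransporters and calcium-activated potassium channels. A count was found in at least 25% of the cells of some type for 17 of them, while 7 had no count in any cell. Of the 15 Kir and Abcc genes, Kcnj8 (Kir6.1) and its partner Abcc9 (SUR2) were highest in mural cells, at means of 3825 and 1467 CPM, with 406.6 to 1119 CPM of Kcnj8 and 7.81 to 749.7 CPM of Abcc9 in the 3 endothelial sums, in which the 7 mural markers also summed to between 10518 and 17402 CPM (48067 to 54991 CPM in mural sums; their part in these values was not tested), and Kcnj5 was neuronal at 340 CPM. All 3 averaged under 0.01 CPM in AST1. Kcnj9 and Kcnj2, the Kir genes next to Kcnj10 and Kcnj16, averaged at most 0.44 CPM in the types. Of the 12 K2P genes, only Kcnk12 and Kcnk13 passed that share, in microglial and oligodendrocytic cells, and both averaged under 8 CPM in astrocytes. Kcnn2 and Kcnn3, small-conductance channels opened by calcium, were found in several astrocyte subtypes. Kcnn2 averaged 233.8 CPM in AST1, 317.4 in AST2, 254.4 in AST3 and 304.4 in AST4, and Kcnn3 55.7, 64.8, 63.8 and 11.98 CPM. Slc12a4, a potassium-chloride cotransporter, averaged between 213.1 and 295.7 CPM in AST1 to AST4 and 171.4 CPM in mural cells, and Slc12a2 (NKCC1) 250.9 CPM in mural cells.

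In the pump list, Atp1b3 averaged between 121.6 and 167.8 CPM in astrocyte subtypes and 263.1 CPM in mural cells. Fxyd6 averaged 554.5 CPM in the 2 neuronal sums and 150.2 CPM in AST4. In AST1 it had a count in 2 or 3 cells of each of 3 suspensions. Fxyd5 was endothelial at 277.6 CPM. Between areas, edgeR called 0 of the 30 family genes that it tested over all astrocytes, and DESeq2 called 4, among them Atp1b3 as higher and Kcnk10 and Kcnn3 as lower in hippocampus, beside 10.3% of all genes. Among the 5 family genes found in over 25% of cells, 2 were called, where 18% of all such genes were: Atp1b3 rose by 0.50 on the log2 scale (edgeR adjusted p = 0.0239) and Kcnn3 fell by 0.54 (adjusted p = 0.0426). In the comparison of AST2 with AST1, 1 of 29 family genes, Kcnj14 (Kir2.4), was called by edgeR, near the 3.18% of all genes called there. The fit with the suspension as a block called 1 gene in all. Kcnj14 had 15.0 and 15.8 CPM in cortical AST2 and 4.07 and 2.59 CPM in hippocampal AST1 sums. Its hippocampal AST2 and cortical AST1 sums had no count, so its fitted value gives no size.

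The genes whose log2(CPM + 1) followed each member most closely were sought over the 14 sums of AST1 to AST4, among 3648 genes of at least 50 CPM on average. For Kcnk1 these were Grin2c and Cxcl14 (Pearson r 0.992 and 0.990), for Atp1b2 Tuba4a and Pcdh7 (0.988 and 0.986), and Paqr8 was among those of Kcnj16 (0.961). For Kcnj10 they were Zfp638 and Osbpl9 (0.912 and 0.837), for Kcnk2 Zmpste24 and Tmem59 (0.906 and 0.896), for Fxyd1 Ntsr2 and Hsd11b1 (0.904 and 0.848) and for Atp1b1 Tom1l1 and Fam13c (0.896 and 0.839). The sums share suspensions, and the coefficients of Kcnk1, Kcnj16 and Atp1b2 include the low values in AST4. Across cells, the pair of members with the highest median rho in the 12 sets was Kcnk1 with Atp1b2, at 0.11 (-0.04 to 0.27), positive in 11 of 12. The cells of a set share a suspension and amplification, and all 21 pairs computed stayed between -0.06 and 0.11 in their medians.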

How the data were processed

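Single cells of 4 suspensions were sequenced with Smart-seq2. Per the labels and the study's methods, the authors used STAR 2.5.2b with GRCm38.p5, ERCC spike-ins and the Gencode annotation, and HTSeq for counting. What they deposited for every cell are raw counts by gene. Totals of 21 columns of the series-wide table equalled those of the per-cell files, and its other 2010 columns were not used. A mural cell without its own file, 33 cells absent from the list of types and 15 untyped cells entered no comparison of types. Lines for reads outside genes or on several genes were left out of library sizes; a median of 12.8% of the reads of AST1 cells lay outside exons.

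Counts were summed per type and suspension (at least 5 cells) and given as CPM, per kb with exon lengths from Gencode M21. Areas were compared with edgeR 4.0.16 (TMM, its low-count filter, robust quasi-likelihood; SE is the log2 difference over the root of F); DESeq2 1.42.0 and limma 3.58.1 served as alternatives, with Benjamini-Hochberg adjustment and a threshold of 0.05. The tests were tried on simulated sums. Shares carry Wilson 95% intervals; reads without molecular tags are not independent molecules, so intervals cover counting error only. Suspensions, not cells, are the replicates, 2 per area, and p-values measure only their spread. Members and gene lists were chosen with earlier results of these data known. Besides the members, genes were named if they had a count in at least 25% of the cells of a type, were called, or were the 2 with a pattern most like a member's (some genes that this rule names are not reported here); Kcnk10, Kcnj9, Kcnj2 and Fxyd7 were added for their place or family. Promoters come from RefSeq (GRCm38.p6); 6 of 7 members had an entry.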

Additional observations from a re-analysis of the deposited data

Results flagged for a closer look

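The 7 members were compared between the pairs of AST1, AST2 and AST3. In 4 cases every cortical suspension showed one direction between subtypes and every hippocampal suspension the other. The share of all genes with such a split is not given here. Atp1b1 in AST2 minus AST1 had a mean log2(CPM + 1) difference of 0.79 in cortex and -0.84 in hippocampus. Atp1b1 in AST3 minus AST1 had 0.14 and -0.76, and Kcnk1 in AST3 minus AST1 had 0.15 and -0.44. Atp1b2 in AST3 minus AST1 had -0.18 in cortex and 0.10 in hippocampus, the opposite order. The differences between areas in these contrasts did not pass edgeR's interaction test on all sums: its adjusted p was 0.0575 for Atp1b1 in AST2 against AST1 (from 0.00934 to 0.556 over 14 alternatives, 4 of which passed, and 0.15 with the suspension as a block), and 0.765, 0.99 and 0.88 for Atp1b1, Kcnk1 and Atp1b2 in AST3 against AST1. With 2 suspensions per area, the agreement in sign rests on 4 values per case. The hippocampal AST2 sums hold 10 and 22 cells.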

How the results depend on the processing

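Kcnk1 and Atp1b1 were lower in hippocampus over all astrocytes under each of 14 alternatives, between -1.16 and -0.72 and between -1.28 and -0.91 on the log2 scale; Kcnj10, Kcnk2 and Fxyd1 also kept their sign. Kcnj16 changed sign, to 0.65 with equal subtype weights, 0.033 within the first PCR block and 0.13 without the second cortical suspension (-0.25 without the first), and Atp1b2 to 0.025 and 0.018 in the first 2 of these. DESeq2 moved 4 members past the threshold (Kcnk1 -0.94, Atp1b1 -1.05, Kcnk2 1.04, Fxyd1 0.45), as did the genes in over 25% of cells for 3 (-0.90, -1.02 and 0.48). Kcnj10 in AST3 was -0.093 within the first PCR block, Kcnj16 in AST1 was -0.22 without the first and 1.06 without the second cortical suspension, and the Atp1b2 difference between AST3 and AST1 was -0.13 with ERCC library sizes. Atp1b1 in AST2 lost its call when AST2 was fitted alone (-2.11) and ranged from -2.43 to -1.86 with 1 suspension left out, where 1 area has a single sum assumed to vary like the other groups. With limma on the mean log values of single cells, which is another scale, Atp1b1 had -4.43 in AST2 and -3.32 in AST3 and Kcnk1 had -3.03 in AST2 and -2.33 in AST3. Of 693 member values under the alternatives of all region fits, 70 changed sign, 21 were newly called and 3 lost their call. The cause was not tested. The restriction to genes in over 25% of cells, the block by suspension number and the fit within the first PCR block were chosen after seeing the data, and the last was not run for AST2.

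Counts of called genes depended on the tool and the genes tested. DESeq2 called 1858 genes over all astrocytes (0 in edgeR), 1561, 4251 and 1250 in AST1, AST2 and AST3 (2, 765 and 5), and 3944, 1626 and 3226 in AST2 against AST1, AST3 against AST1 and AST3 against AST2 (585, 0 and 465). Genes in over 25% of cells gave 561 over all astrocytes, 0, 98 and 14 in the subtypes, and 6 and 5 in AST2 against AST1 and AST3 against AST2. ERCC library sizes gave 1 over all astrocytes, 1 in AST1 and 2 in AST3; RLE factors and no filter each gave 1 in AST1, and thinned cells 1 in AST3 against AST1. Subtypes fitted alone gave 0 in AST1, AST2 and AST3, and limma on mean log values 4, 31 and 18, with 0 in AST2 against AST1 and in AST3 against AST2. Within the first PCR block 0 were called in AST1 and AST3. With 1 suspension left out the counts ran from 0 to 0 in AST1 and in AST3, from 0 to 3845 in AST2, from 0 to 3270 in AST2 against AST1 and from 0 to 3037 in AST3 against AST2. They were 0 in AST2 without either cortical suspension and 1161 and 3845 without the first or second hippocampal one.

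The numbers 1 and 2 of the suspensions do not pair the samples by their values: deviations of the first suspensions of both areas had r = -0.015, and sums of the same suspension r of -0.029 to 0.012. As a replicate block, the number gave 0 in AST1, 220 in AST2 against AST1 and 1.0e+02 in AST3 against AST2, with Atp1b1 at -1.79 in the former (adjusted p = 0.0493). The suspension as replicate block left 1 and 1 called there. Of 28 member differences between subtypes without a test, 16 had the same sign in each suspension, and 16 to 19 did under the alternatives. The differences of AST4 from AST1 among the 28 rest on only 2 suspensions, and all of them are among the 16. The share of all genes with the same sign in each suspension is not given here. In 3 of 19 pairs, Kcnj10 with Kcnj16 among them, the median rho exceeded 0.1 in size over cells with counts of both genes, against 1 of 21 in all cells. At the lowest depth of 600758 counts, 1 count stands for under 2 CPM, so a share of cells with a count near that of mural cells cannot show expression.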

Other observations

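The 33 cells of the first cortical suspension that the list of types does not hold were in no comparison. Their sum held 4824 CPM of Atp1b2, 1161 of Kcnk1, 707 of Atp1b1, 210 of Kcnj16, 110 of Kcnj10, 88.4 of Fxyd1 and 4.19 of Kcnk2. Of the 9 oligodendrocytic cells, which gave no sum of 5 from a suspension, 44.4% had a count of Kcnj10, the Kir gene also used by oligodendrocytes, with a median of 87.7 CPM in those cells, and 11.1% one of Kcnj16.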
